A study of Rattus norvegicus with 28 samples.

Results

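The livers of 10 female Sprague-Dawley rats that ate the control diet of a 2-year feeding study were described here as they were, for the genes of strongest signal and for those that differed most and least from animal to animal. The 10 arrays were all the control arrays among 28 liver arrays, and diets were not compared. The control diet was laboratory chow with 33% of the isogenic non-GM maize. The other 18 arrays came from 9 rats fed NK603 maize (written NK603-R by the study) and 9 rats fed NK603 maize treated with Roundup while it grew (NK603+R), each at 33% of the chow, and these served to look again at the spread and the gene pairs found in the controls and as a wider set for the age fit. No genotype was manipulated in any group, and nothing in the labels says which rats shared a cage or a litter. Of the control rats, 8 were killed at 720 to 737 days and 2 earlier, at 540 days (control replicate 3) and 646 days (control replicate 5). The study states that rats were killed either on welfare grounds or at its end. It also states that most deaths of females were from mammary tumours, which some control rats bore. The labels do not say which ones. Ages were wider apart on the other diets, with 5 NK603 rats killed at 715 to 737 days and 4 at 393 to 639 days, and 6 NK603+R rats killed at 722 to 737 days and 3 at 533 to 631 days.

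Each liver was hybridised to 1 Affymetrix Rat Gene 2.0 ST array, and a value is the log2 signal of a transcript cluster, the set of probes that reads 1 gene, so that a step of 1 is a doubling of signal. Of 36685 clusters 18511 carried exactly 1 gene symbol, and 7964 of these had a mean above 7 over the 10 control livers and were ranked for their spread. The spread is the SD over the 10 rats. It holds biological differences between animals together with those of sampling, RNA and array, which 1 array per rat cannot tell apart. Genes picked by their level or SD are described with no test. Signals of different genes were read by different probes, so their order is one of signal and not of RNA abundance. In whole liver, fewer cells of a type and less RNA per cell cannot be told apart either.

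Control replicate 1 stood apart from the other 9 rats. Its median absolute deviation from the cluster medians was 0.201, against 0.067 to 0.118 in the other control rats, and its mean correlation with the other control arrays was 0.947, against 0.972 to 0.980. It was the highest rat in 24.6% and the lowest in 26.8% of the 7964 clusters, 51.4% in all. The array median of 5.96 lay inside the range of the other rats, 5.94 to 6.06. Results below that rest on this rat are given with and without it.

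The liver is built mostly of hepatocytes, which secrete albumin, carriers, clotting factors and complement into the blood and hold the enzymes of the urea cycle, lipid synthesis, bile acid synthesis and drug metabolism. Kupffer cells, sinusoidal endothelium, stellate cells, bile duct cells and passing blood cells make up the rest. Many hepatic enzymes also follow feeding, hormones and the circadian clock, in which BMAL1 with CLOCK or NPAS2 switches on genes such as Per, Nr1d1 and Dbp, while REV-ERB repressors (Nr1d1) and ROR activators act in turn on Bmal1 and Npas2.

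The labelled tissue was borne out by its markers. All 10 measured hepatocyte markers had a mean above 7, with a median of their means of 13.16. Among all 18511 single-symbol clusters 7964 had a mean above 7. The genes with the strongest signal were secreted hepatocyte products and mitochondrial transcripts. Alb, the main plasma protein, was highest at 14.05 ± 0.04 (SD, n = 10), with 13.97 in the lowest and 14.11 in the highest rat. It was followed by COX3 (13.74 ± 0.06), a mitochondrially encoded subunit of cytochrome c oxidase, Fetub (13.66 ± 0.05), a plasma protease inhibitor, COX1 (13.60 ± 0.05) and the translation factor Eef1a1 (13.60 ± 0.04). The haem carrier Hpx, the proteinase inhibitor Pzp, the thyroid hormone carrier Ttr, Ambp and complement C3 completed the first 10. The next 20 held further plasma proteins (Gc, Rbp4, B2m, Apoe, Crp, Fgb, Mug1l1, Apob, Itih4, Vtn and Ahsg) and enzymes of detoxification and amino acid breakdown (Cat, Bhmt, Hpd, Adh1c, Cps1, Rida and Mgst1), together with Rnase4 and the receptor inhibitor Errfi1, which was the last of the 30 at 13.29 ± 0.12. Of these 30 genes 26 had an SD under 0.1. Bhmt, which remethylates homocysteine, had the widest SD among them, 0.17, with 13.09 in its lowest rat and 13.68 in its highest.

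The median SD of the 7964 clusters was 0.161, a factor of 1.12 in signal, and 90% of clusters lay between 0.0814 and 0.379. An SD above 0.5 was found for 183 clusters (2.30%) and one below 0.1 for 974 (12.2%). The median SD fell with the level, with 0.174 for clusters with a mean between 7 and 8 and 0.0673 for the 50 clusters above 13, of which 80% had an SD below 0.1. The part of the joint normalisation and of the upper end of the signal range in this fall was not tested.

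**Figure D1:**
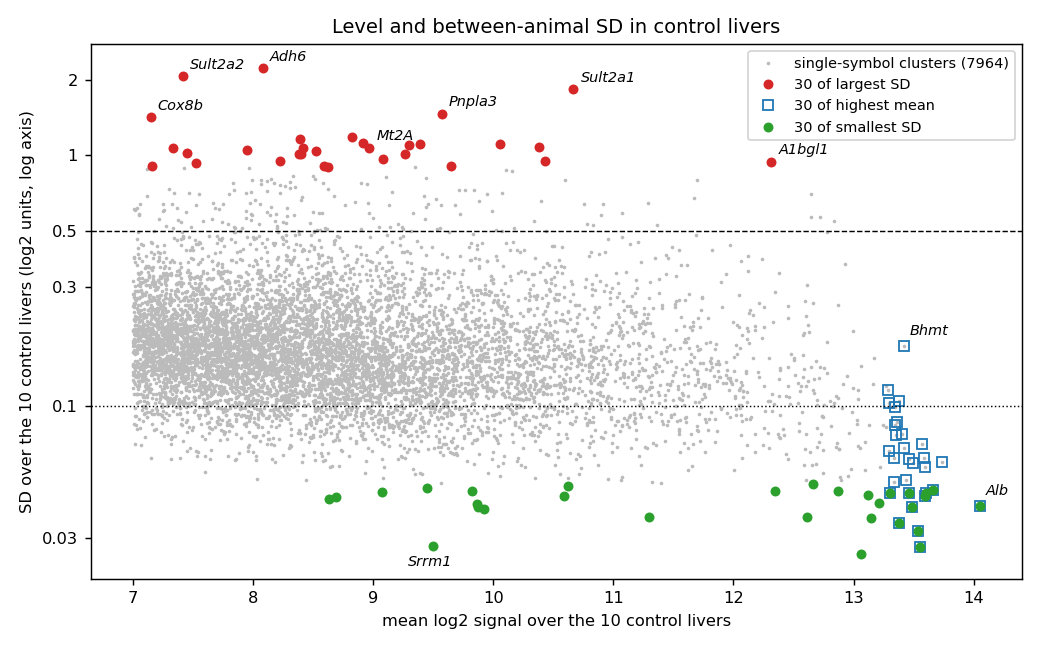
Mean log2 signal (horizontal axis) and SD over the 10 control livers (vertical axis, log scale) of the 7964 clusters, with the 30 genes of largest SD, highest mean and smallest SD marked. The dashed line is an SD of 0.5 and the dotted line 0.1, and the strongest genes lie mostly below 0.1 while Adh6 reaches 2.22.

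The steadiest genes held both strong secreted products and genes of moderate signal. COX2, another mitochondrially encoded oxidase subunit, had the smallest SD, 0.0257, with all rats between 13.01 and 13.10. The secreted proteins Ambp (SD 0.0277), C3, Apob, Plg, Gc, Alb, C8g, Apoh, Rbp4, Ahsg, C8b and Fetub, the transporters Slc38a3 and Slco1b2, and COX1, Eef1a1 and Tpt1 were among the 30 steadiest, and 10 of the 30 were also among the 30 of highest mean. The others were housekeeping genes of moderate signal. Srrm1, a splicing coactivator, had a mean of 9.50 and an SD of 0.0279, with rats between 9.46 and 9.54, and the small GTPase Cdc42 had a mean of 11.30 and an SD of 0.0364. Tmem183a, Elp2, Mrpl51, Rnf167, Scaf8, Ctnnb1, Abcf3, Mtfr1l, Smap2 and Hsbp1 had means between 8.63 and 10.62. The last gene inside the 30 was Slco1b2 (0.0492) and the first outside was Nfia (0.0494). Membership was not firm, since 16 of the 30 were again among the 30 steadiest without control replicate 1 and 11 with each array centred on its median. In the 18 rats on the other diets, with each diet's mean removed, 19 of the 30 had an SD below 0.1. COX2 (0.146), Srrm1 (0.138) and Cdc42 (0.132) were not among these 19. Scaf8 (0.194) and Rnf167 (0.183) were above the median SD of all ranked clusters in those rats, 0.176, and Slco1b2 (0.174) was near it. Only 6 of the 30 were also among the 30 steadiest in those rats.

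The gene with the largest SD was Adh6, a member of the alcohol dehydrogenase family. It had 9.37 to 10.47 in 6 control rats and 5.09 to 6.05 in the other 4 (control replicates 3, 6, 7 and 9), with no rat between, a range of 41.7-fold in signal. The 18 other rats fell on both sides of nearly the same interval, 11 at 9.41 to 10.97 and 7 at 5.14 to 6.07.

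Sult2a2 and Sult2a1 followed. They encode hydroxysteroid sulfotransferases, which conjugate steroids and bile acids, and lie near each other on chromosome 1. Sult2a1 had 12.14 to 12.80 in control replicates 1, 3, 4, 5 and 6 and 8.73 to 9.36 in replicates 2, 7, 8, 9 and 10. Sult2a2 had 9.04 to 9.76 in the same 5 high rats and 4.68 to 6.13 in the others. Both genes thus split the control rats in the same way, and Adh6 split them differently. Among the 18 other rats 14 were high and 4 low for each of the genes, with Sult2a1 at 11.65 to 13.05 and 8.69 to 9.36. They are close paralogs, and their separate signals are uncertain wherever a probe matches both. The split was not set by replicate 1, for without it the SD was 1.77 for Sult2a1 (1.83 with it) and 2.02 for Sult2a2 (2.07 with it).

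**Figure D2:**
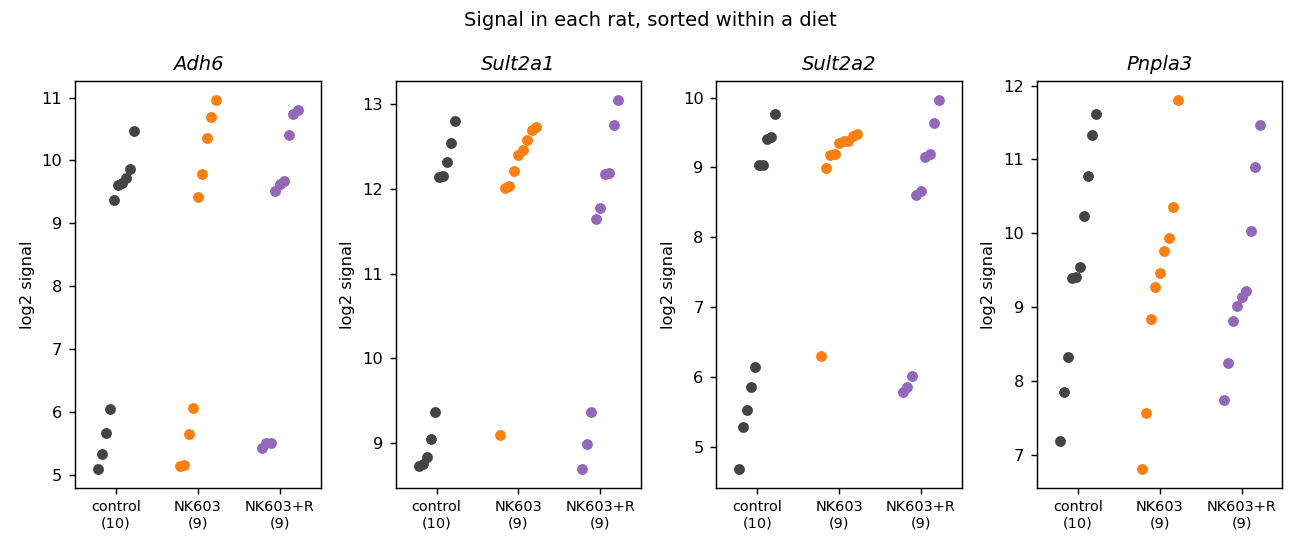
Log2 signal of Adh6, Sult2a1, Sult2a2 and Pnpla3 in each rat, sorted from low to high within the control (10 rats), NK603 (9) and NK603+R (9) diets. The first 3 genes leave an interval with no rat, between 6.05 and 9.37 for Adh6 in controls, while Pnpla3 is spread from 7.19 to 11.62.

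Pnpla3, a lipid droplet hydrolase that follows insulin and carbohydrate, had the fourth largest SD (1.47), with 7.19 in control replicate 5, a median of 9.48 and 11.62 in replicate 8. Cytochromes P450 held 4 of the 30 places. Cyp2b2, the phenobarbital-inducible enzyme, had 6.91 in the lowest rat, a median of 8.15 and 10.09 in the highest (SD 1.16). Cyp3a9 ran from 7.62 to 10.79 (SD 1.10) and Cyp3a18 from 7.22 to 9.62 (SD 0.91). Cyp17a1, an enzyme of steroid synthesis, lay between 7.26 and 9.10 in 9 rats and at 10.70 in control replicate 5, and its SD of 1.01 was 0.64 without that rat. These cytochromes differed in which rats were highest, namely replicates 2, 10, 4 and 5 for Cyp2b2, Cyp3a9, Cyp3a18 and Cyp17a1.

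Among plasma protease inhibitors of the macroglobulin family, A2m, the classical acute phase protein of the rat, had 8.56 in the lowest rat, a median of 9.85 and 11.48 in the highest (SD 1.11), and A2ml1 ran from 9.06 to 12.51 (SD 1.08). Both were highest in control replicate 5 and lowest in replicate 4. The other 20 measured acute phase genes had SDs of 0.48 or less, and 8 of the 21 were below 0.1, against 35.2% of all clusters with a mean of 12 to 13, where the median of this list lay (12.62). A1bgl1 had the highest mean among the 30, 12.31, with 10.29 in replicate 4 and 13.20 in replicate 1. Mt2A, a metal-binding metallothionein, had 11.35 in control replicate 1, against 7.43 to 9.78 in the other 9 rats. Cox8b and Stac3, best known from muscle, and Cpa1, a digestive enzyme of the pancreas, reached 9.94, 9.50 and 10.22 in control replicate 1. Of 13 measured markers of muscle, fat and pancreas only Cpa1 and Cidec had a mean above 7. These 2, Adipoq, Pnlip and Amy2a3, 5 of the 13, were highest in replicate 1, and replicate 6 was highest for 4 of the 13. Replicate 1 was highest in 24.6% and replicate 6 in 4.52% of all ranked clusters. These shares are a rough background, since most of the 13 were too dim to be ranked. Amy2a3, pancreatic amylase, had 5.49 in replicate 1, against 4.41 to 4.84 in the others. The trypsinogen Prss1 had 4.71 in replicate 1, against 5.35 in the highest rat. None of the muscle markers Myl1, Acta1, Ckm and Actn3 was highest in replicate 1. The part of such cells in these values was not tested. Mmd2 (5.98 to 8.37) and Nrep (6.43 to 9.39) were the remaining genes outside the sets described below, apart from Atf3.

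Of the 30 genes 11 were highest and 6 lowest in control replicate 1, or 56.7% in all, close to its share of 51.4% over all clusters, and 25 of the 30 had an SD above 0.5 without it. Leaving out 1 rat lowered the SD by more than 1.5 times for 10 of the 30. For 9 that rat was replicate 1: Npas2 (1.11, and 0.18 without it), Dbp (1.07 and 0.22), Bmal1 (1.01 and 0.11), Chka (0.95 and 0.31), Slc6a6 (0.90 and 0.42), Noct (1.04 and 0.66), Mir122 (1.03 and 0.66), Cryab (0.96 and 0.64) and Mt2A (1.07 and 0.71). Over all 7964 clusters 122 had an SD above 0.5 without replicate 1, and 114 of these were among the 183. The last gene inside the 30 was Atf3 (0.9001) and the first outside was Coq10b (0.8992).

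**Figure D3:**
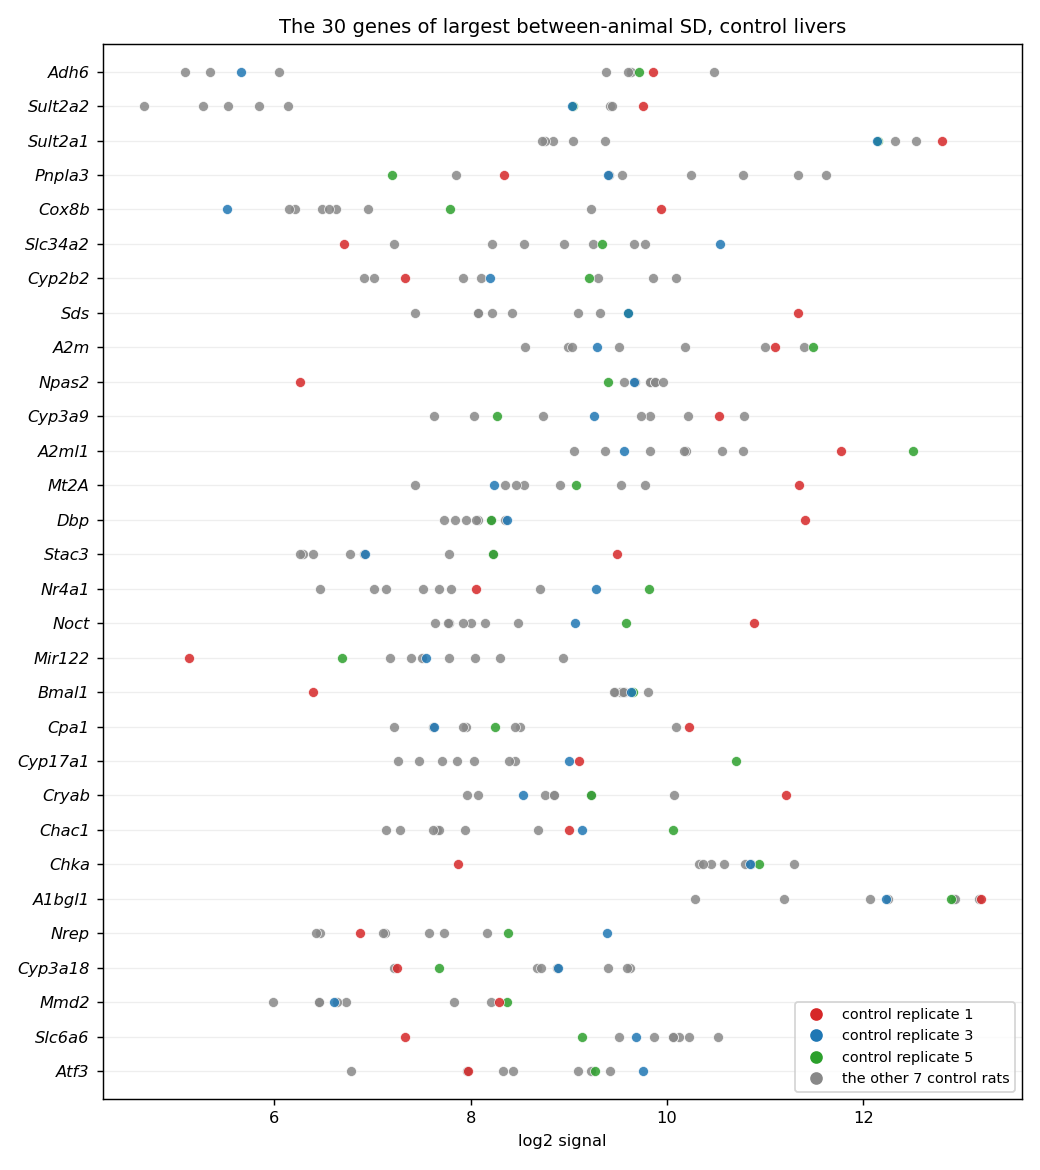
Log2 signal of the 30 genes of largest SD in each of the 10 control livers, 1 row per gene, in order of SD from the top. Control replicate 1 (red) lies far from all others for Npas2, Bmal1, Dbp and Chka, while Adh6, Sult2a2 and Sult2a1 split the rats in 2.

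The same genes tended to vary in rats that the ranking had not used. All 30 had an SD above 0.5 over the 18 rats on the other diets (diet means removed), 28 were among the 100 largest there and 17 among the 30 largest. In those rats 247 of the 7964 clusters were above 0.5, and they included 123 of the 183. The SDs in the control rats and in the 18 others had a Spearman correlation of 0.589 across the 7964 clusters, which are not independent and which share array design and normalisation. The median SD was 0.161 in control, 0.173 in NK603 and 0.168 in NK603+R rats.

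Many clock genes differed in control replicate 1 from all other control rats. Of 15 measured clock and clock-output genes with a mean above 7, 7 had an SD above 0.5, against 2.30% of all clusters. Without replicate 1 the count was 2, Noct and Per2, against 1.53% of all clusters. Bmal1 had 6.39 in control replicate 1 and 9.46 to 9.81 in the other 9 rats. Npas2, the partner of BMAL1, had 6.26 in replicate 1, against 9.40 to 9.96, and Clock, its other partner, had 8.92, against 9.88 to 10.24. Genes of the opposite arm were high in the same rat. Dbp, a transcription factor of clock output, had 11.41 in replicate 1, against 7.73 to 8.37. Per3 had 8.51 against 6.28 to 6.80, Ciart had 8.21 against 5.12 to 5.67, and Usp2, a ubiquitin peptidase of clock output, had 10.20 against 7.49 to 8.39. Of the 15 genes with a mean above 7, 6 were above every other control rat in replicate 1, against 24.6% of all ranked clusters. Another 4 of the 15 were below every other control rat in replicate 1, a count near its share of 26.8% over those clusters. Per3, Ciart and Bhlhe41, of lower mean, brought the count above to 9 of the 18 measured genes. Per2, Cry1, Cry2, Nfil3 and Bhlhe40 were inside the range. Among the other 9 rats the SD was 0.11 for Bmal1 and Clock, 0.18 for Npas2 and 0.22 for Dbp, but 0.66 for Noct, 0.51 for Per2, 0.48 for Per1 and 0.46 for Nr1d1, so that some of these genes varied among those rats too. The study states that the rats were killed at a like time of day, and the hour of each rat was not in the sources used here. The rats on the other diets included 1 with a similar Bmal1 value, 6.22 (NK603 replicate 9). NK603+R replicates 4 and 7 and NK603 replicate 7 had 8.22, 8.60 and 8.53, against 9.15 to 9.56 in the rest. These 4 rats had Dbp at 10.28 to 11.89, against 7.66 to 8.90 in the other 14.

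**Figure D4:**
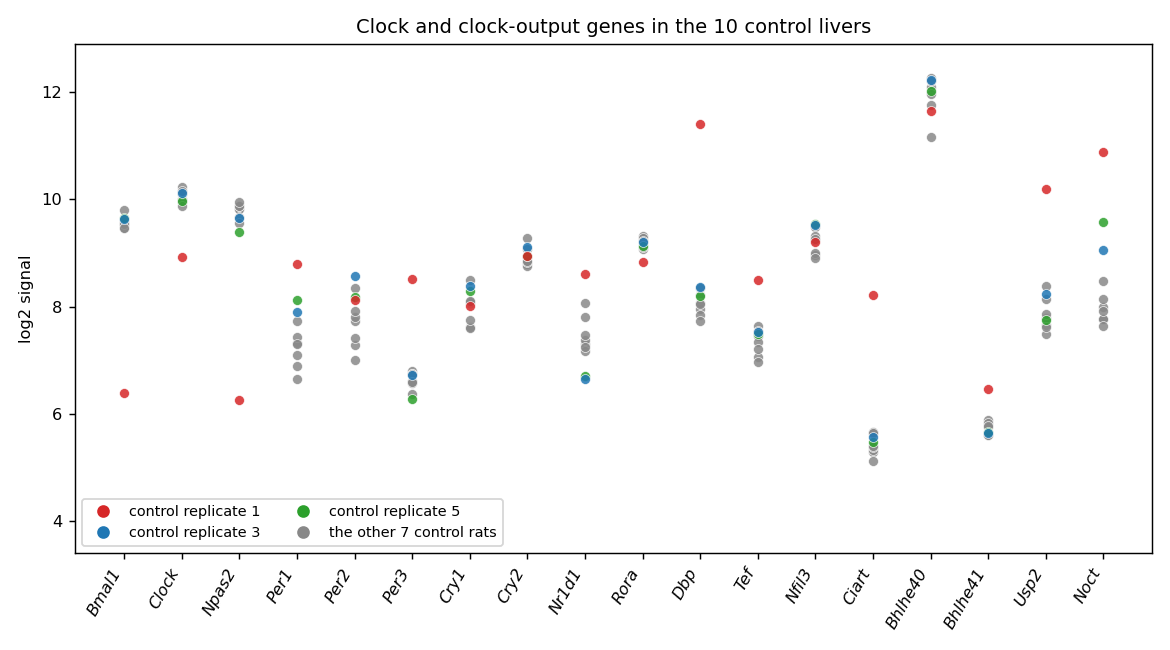
Log2 signal of the 18 measured clock and clock-output genes in the 10 control livers, 1 column per gene. Control replicate 1 (red) lies below the other rats for Bmal1, Clock, Npas2 and Rora and above them for 9 genes, Dbp and Ciart among them.

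The promoter of Bmal1 is shown because the nuclear receptors REV-ERB and ROR act on it at sites with the core letters AGGTCA. In the RefSeq promoter (GRCr8, chr1:176766078-176766377, plus strand, 250 bases before the start to 50 after) a script found 1 such match, in capitals, 15 bases before the start.

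Bmal1: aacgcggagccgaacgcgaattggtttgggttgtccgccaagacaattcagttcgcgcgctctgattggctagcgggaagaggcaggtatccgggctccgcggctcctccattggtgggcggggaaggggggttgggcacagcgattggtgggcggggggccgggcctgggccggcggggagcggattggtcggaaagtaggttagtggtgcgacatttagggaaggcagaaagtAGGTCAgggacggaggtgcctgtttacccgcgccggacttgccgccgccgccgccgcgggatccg

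The letters AGGTCA, on either strand, were in 16.2% of 33469 RefSeq promoters of the same length, and no match was found in that of Npas2. The E-box CACGTG was in 6.42% of promoters and was not found in the 300 bases of Dbp.

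Control replicate 1 also differed in the markers of other cells. It was the lowest rat for 9 of 12 Kupffer cell and macrophage markers and all 5 of sinusoidal endothelium with a mean above 7, against 26.8% of all ranked clusters. Csf1r, the receptor that macrophages need to survive, had 7.98 in replicate 1, against 8.77 to 9.80 in the other rats, and Vsig4 had 8.36, against 8.79 to 10.39. The haemoglobin chains Hba-a3 (10.98, against 8.40 to 9.89) and Hbb-b1 (11.50, against 9.20 to 10.47) were highest in it. All 12 Kupffer markers had a mean above 7, while of 11 neutrophil markers only Lcn2 did, beside 7964 of all 18511 single-symbol clusters. The mean of the 10 hepatocyte markers, each centred on its own mean, was 0.10 in replicate 1 and lay between -0.08 and 0.05 in the other rats, but only Asgr1 and Asgr2 of the 10 were highest in it, and Hnf4a and Fgb were lowest. The part of these in the other values of this rat was not tested.

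The 100 clusters of largest SD were then grouped by how they varied together over the 10 rats. Average linkage at a mean Pearson correlation of 0.8 gave 9 sets of at least 4 genes, with 46 clusters. Since the sets were picked for their correlation, it is a description. In 4 of the sets the mean over the members was highest, and in 3 lowest, in control replicate 1, and the mean correlation fell under 0.8 without that rat in 6 of the 9.

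**Figure D5:**
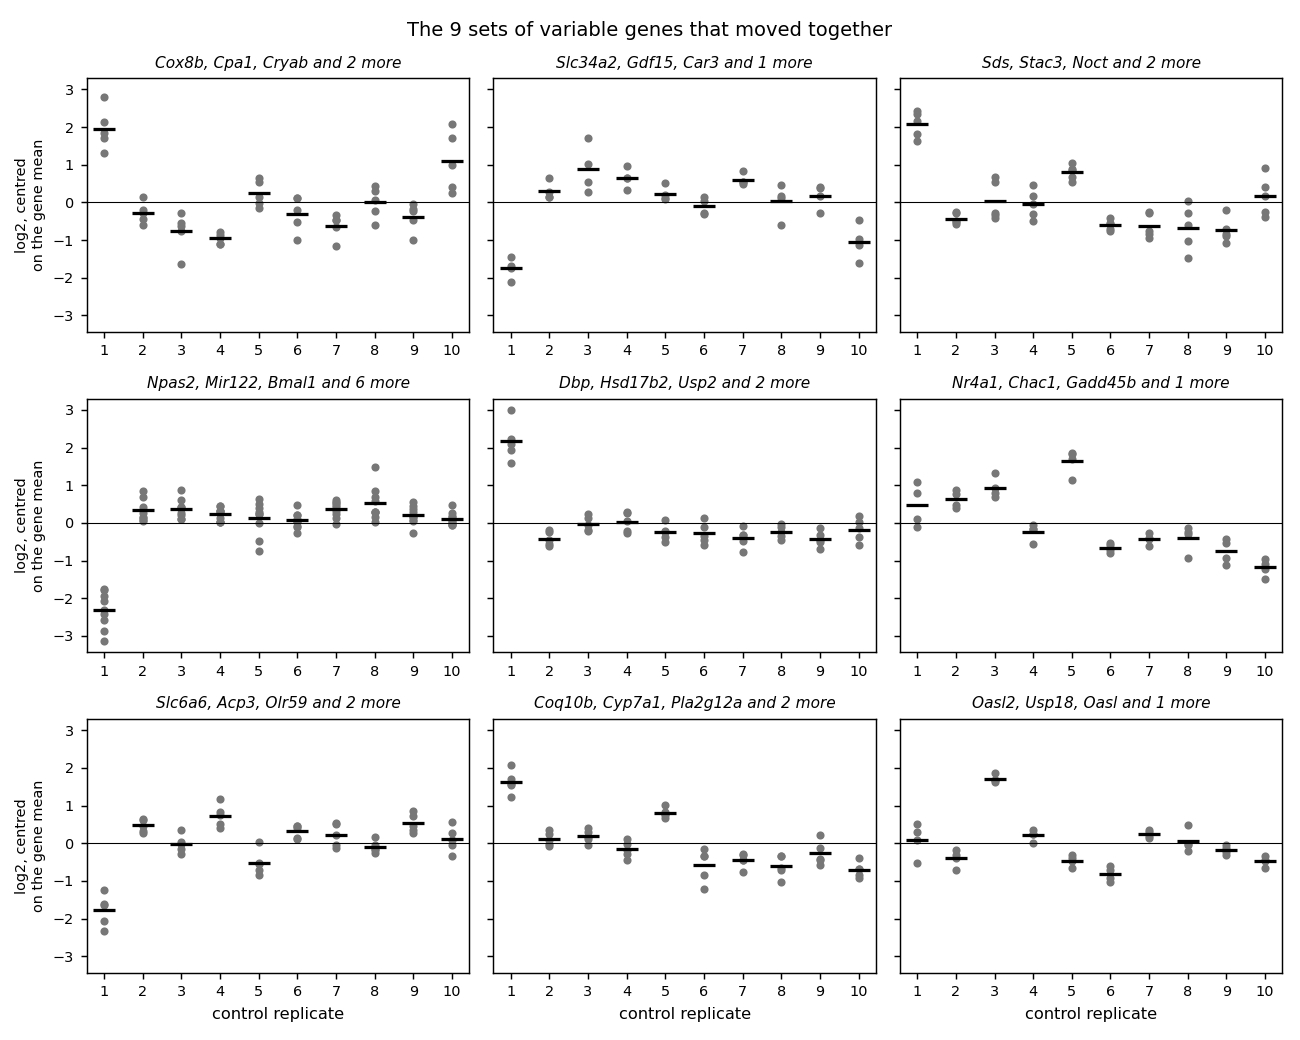
Log2 signal of each member, centred on its own mean, in the 10 control rats for the 9 sets, with the mean over members as a bar. Control replicate 1 is the extreme rat in all sets but those of Nr4a1 and Oasl2, where replicates 5 and 3 are highest.

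The largest set was Npas2, Mir122, Bmal1, Chka (choline kinase), Dusp6 (a phosphatase of ERK kinases), Osgin1, Tubb2a, Popdc2 and Gldc (glycine decarboxylase). Its mean correlation was 0.886, and 0.119 without control replicate 1, where all 9 members were lowest. Dbp, Hsd17b2, which oxidises oestradiol, Usp2, Por, the electron donor of cytochromes P450, and Mfsd2a, a lipid transporter, formed a set with a mean correlation of 0.899, and 0.165 without that rat, where all 5 were highest. Por had 11.89 in replicate 1, against 9.46 to 10.14 in the others. These 2 sets were thus 1 rat against 9.

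Mir122 is the gene of the main microRNA of hepatocytes. Its cluster had 5.13 in control replicate 1 and 6.69 to 8.94 in the other rats, and whether it reads the precursor or the mature arms was not tested. The mature arms in RefSeq follow, with the seed (bases 2 to 8), which pairs with targets, in capitals.

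rno-miR-122-5p: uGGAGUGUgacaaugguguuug
rno-miR-122-3p: aACGCCAUcaucacacuaa

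In the set of Cox8b, Cpa1, Cryab (a small heat shock protein), Osmr (the oncostatin M receptor) and Fabp12 all members were highest in control replicate 1, and the first 3 were next highest in replicate 10. Cox8b and Fabp12 had means of 7.15 and 7.12 but medians of 6.59 and 6.93. Their high values in replicate 1 thus helped them pass the limit of 7. Cpa1 had 10.22 in control replicate 1 and 10.09 in replicate 10, against 7.22 to 8.51 in the other 8, and Cox8b had 9.94 and 9.23 in these 2 rats, against 5.52 to 7.79. Osmr and Fabp12 had 9.56 and 7.38 in replicate 10, inside the range of the other 8 rats. The mean correlation was 0.839, and 0.697 without replicate 1. A further set ran the opposite way. Slc34a2, a phosphate transporter, had 6.71 and 7.21 in replicates 1 and 10, against 8.22 to 10.54, and Gdf15, a stress-induced cytokine, 8.42 and 9.04, against 9.84 to 11.19. With Car3, a carbonic anhydrase, and Jcad they had a mean correlation of 0.892, and 0.829 without replicate 1. The mean levels of these 2 sets had a correlation of -0.961 over the 10 rats and -0.906 without replicate 1, as a description.

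Sds, which breaks down serine, Stac3, Noct, Slc1a2 (a glutamate transporter) and Ces1dl1 were highest in control replicate 1 and next highest, except for Sds, in replicate 5 or 10. Ces1dl1 had a mean of 7.06 but a median of 6.81, so its 8.69 in replicate 1 helped it pass the limit of 7. Sds had 11.33 in replicate 1, against 7.43 to 9.61, and Noct, a rhythmic phosphatase, 10.88 against 7.63 to 9.58. Their mean correlation was 0.857, and 0.620 without replicate 1. Slc6a6, the taurine transporter, Acp3, Olr59, Elapor1 and Acmsd, an enzyme of tryptophan breakdown, were all lowest in replicate 1, with 7.33 for Slc6a6 against 9.13 to 10.52, and their mean correlation of 0.864 was 0.635 without it. Coq10b, Cyp7a1, Pla2g12a, Upp2 and Slc38a2 (an amino acid transporter) were highest in replicate 1 and second highest in replicate 5. Cyp7a1, which catalyses the first step from cholesterol to bile acids, had 13.23 and 12.44 in these 2 rats, with a median of 11.80 over all 10 and 10.49 in the lowest. The mean correlation was 0.889, and 0.774 without replicate 1.

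The remaining sets did not rest on that rat. Nr4a1 and Nr4a2, nuclear receptors switched on within minutes of a stimulus, Chac1, which degrades glutathione, and Gadd45b had a mean correlation of 0.891, and 0.936 without replicate 1. Nr4a1 had 9.81 in control replicate 5 and 9.28 in replicate 3, a median of 7.74, and 6.47 in replicate 10. Chac1 had 10.06 and 9.14 in the same 2 rats and 7.14 in replicate 10. Of 15 immediate early genes with a mean above 7, 10 were lowest in replicate 10, against 5.98% of all clusters, and 6 had an SD above 0.5, against 2.30%. Without that rat 4 were above 0.5, against 2.40%. Atf3, a stress-induced transcription factor and the last of the 30 most variable genes, was among these, with 6.78 in replicate 10 and 7.97 to 9.76 in the other rats.

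Oasl2, Usp18, Oasl and Irf7 formed the interferon set, with a mean correlation of 0.911, and 0.951 without replicate 1. Interferons induce such genes against viruses, IRF7 amplifies that induction and USP18 damps it. All 4 were highest in control replicate 3. Oasl2 had 10.05 in that rat, against 7.46 to 8.66 in the other 9, Irf7 had 9.75, against 7.45 to 8.20, and Oasl had 9.78, against 7.20 to 8.41. Usp18 was read by 2 clusters, with 9.99 and 10.04 in replicate 3, against 7.33 to 8.87 and 8.08 to 8.96. Without replicate 3 the mean correlation of the set was 0.76. Of 16 interferon response genes with a mean above 7, 13 were highest in replicate 3, against 10.6% of all clusters, and 5 had an SD above 0.5, against 2.30%. Without replicate 3 only Mx2 was above 0.5, against 2.31% of clusters, and the SD was 0.44 for Oasl2 (0.78 with it) and 0.25 for Irf7 (0.64 with it). The same rat was highest for 10 of 12 Kupffer cell markers, against 10.6% of all clusters, with Vsig4 at 10.39 against 8.36 to 9.44 and Cd68 at 9.74 against 8.18 to 9.25, and the part of this in the interferon values was not tested.

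The promoters of Oasl2 and Irf7 are shown because they carry the letters GAAA, any 2 bases and GAAA again, the core of the interferon-stimulated response element. A match on either strand was found in 2 of the 3 promoters of this set that RefSeq gave, and in 3.92% of the 33469 promoters. Oasl2 lies at chr12:47383136-47383435 and Irf7 at chr1:205799974-205800273 (GRCr8, minus strand for both), and the capitals mark the match, here in its reverse letters.

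Oasl2: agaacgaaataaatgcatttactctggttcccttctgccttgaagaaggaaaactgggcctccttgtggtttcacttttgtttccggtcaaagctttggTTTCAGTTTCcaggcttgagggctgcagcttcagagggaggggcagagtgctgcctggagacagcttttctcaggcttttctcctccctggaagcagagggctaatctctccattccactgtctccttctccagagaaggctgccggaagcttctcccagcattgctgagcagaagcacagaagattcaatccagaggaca
Irf7: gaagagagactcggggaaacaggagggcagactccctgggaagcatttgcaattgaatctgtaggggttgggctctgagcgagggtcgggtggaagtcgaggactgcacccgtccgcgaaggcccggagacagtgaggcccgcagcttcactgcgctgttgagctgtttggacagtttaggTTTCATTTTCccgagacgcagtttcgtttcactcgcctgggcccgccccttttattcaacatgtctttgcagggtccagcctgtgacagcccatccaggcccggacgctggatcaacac

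When the sets were formed again over the 9 rats without replicate 1, there were 6, with 33 clusters. The interferon and Nr4a sets came back, the first with the second Usp18 cluster and the second with Nr4a3, Sik1, Pla2g12a and Irs2, and 4 sets shared no pair of genes with the first grouping. Pnpla3, Scd (stearoyl-CoA desaturase), Elovl6 and Me1, all of fatty acid synthesis, had a mean correlation of 0.915 without replicate 1 and 0.913 with it. Scd had 10.95 in control replicate 5, a median of 12.96 and 13.24 in replicate 10. Of 16 lipogenic genes, all with a mean above 7, 5 had an SD above 0.5, against 2.30% of all clusters, and 9 were lowest in replicate 5, against 9.00%. Without that rat 2 were above 0.5, Pnpla3 and Acacb, against 2.22%. Without replicates 1 and 5 the mean correlation of the set was 0.880. RT1-Da, RT1-Ba, RT1-Db1 and Cd74, which present antigen on class II molecules, varied with Cyp17a1, Fabp7 and Slc1a4 at 0.878, and 0.829 with replicate 1. All 4 were highest in control replicate 5, with RT1-Da at 10.43 against 7.56 to 8.33 and Cd74 at 12.38 against 10.29 to 10.93, and without replicates 1 and 5 the mean correlation of the set was 0.467. Of 7 measured B and plasma cell markers, a list that also holds Cd74, only Cd74 and Jchain had a mean above 7. Their mean, each gene centred, was 0.72 in replicate 5, against -0.89 to 0.44 in the other rats. Jchain itself had 7.64 in replicate 5, against 6.50 to 8.53, Cd79b 7.35, against 6.30 to 7.21, Ms4a1 5.95, against 5.18 to 6.13, and Mzb1 5.49, against 5.78 to 6.17. The part of such cells in the class II values was not tested. A1bgl1, Slc7a7, Osmr and Lifr, which encodes the LIF receptor, had a mean correlation of 0.881 (0.846 with replicate 1). Lyz2, Rgs18, Il1rn, Jun and Coq10b had 0.899 (0.669 with it).

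The pair of genes with the largest SD in each of the 9 sets was tested in the 18 rats on the other diets, which had no part in forming the sets. The residuals from the diet means were correlated, with a two-sided permutation test within diets (100000 resamples) and Benjamini-Hochberg adjustment over the 9 pairs. Oasl2 and Usp18 had a Pearson correlation of 0.917 (permutation p = 1e-05, the smallest that the resamples can give, adjusted p = 4.5e-05), a Spearman correlation of 0.874 (permutation p = 2e-05) and a Pearson correlation of 0.801 without the 2 rats farthest from the median. Cox8b and Cpa1 had 0.816 (permutation p = 0.00011, adjusted p = 0.00033), a Spearman correlation of 0.771 (permutation p = 0.00035) and 0.775 without 2 rats. For Nr4a1 and Chac1 the values were 0.750 (permutation p = 0.00091, adjusted p = 0.00205), 0.728 (permutation p = 0.00263) and 0.619. These pairs passed in the other rats too. Age at death differed among those 18 rats and was not removed from the residuals. A shared difference with age or illness may thus be part of the correlation of any of the 9 pairs, which was not tested.

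Slc34a2 and Gdf15 had 0.605 (permutation p = 0.0212, adjusted p = 0.0351), with a Spearman correlation of 0.620 (permutation p = 0.0181), but 0.563 and an adjusted permutation p of 0.0611 without the 2 rats farthest from the median. Slc6a6 and Acp3 had 0.550 (permutation p = 0.0234, adjusted p = 0.0351), a Spearman correlation of 0.589 (permutation p = 0.0203) and 0.598 without 2 rats. Sds and Stac3 (0.452, permutation p = 0.0578, adjusted p = 0.0744, Spearman 0.416 with permutation p = 0.0893), Coq10b and Cyp7a1 (0.233, permutation p = 0.359, adjusted p = 0.404, Spearman 0.218 with permutation p = 0.389) and Npas2 and Mir122 (-0.04, permutation p = 0.875, adjusted p = 0.875, Spearman -0.17 with permutation p = 0.497) did not pass. Without 2 rats their Pearson correlations were 0.347, 0.163 and -0.30.

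Dbp and Hsd17b2 had a Pearson correlation of 0.921 over the 18 rats (permutation p = 1e-05, adjusted p = 4.5e-05) and a Spearman correlation of 0.808 (permutation p = 0.00026). These values mix 2 kinds of rats, because 4 stood apart, with Dbp at 10.28 to 11.89, while the other 14 had 7.66 to 8.90. Hsd17b2 was at most 10.39 in those 14 and reached 11.71 in the 4. Within these 14, chosen by their Dbp values, the Pearson correlation was 0.766 (permutation p = 0.0107) and the Spearman correlation 0.587 (permutation p = 0.0398), without adjustment. The mean correlation over all pairs of a set was at least 0.8 in the 18 rats only for the interferon set, 0.889, and was 0.696 for the Nr4a1 set.

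Further lists are described by their counts. Of 29 coagulation and complement genes 14 had an SD below 0.1, against 12.2% of all clusters and 22.9% of those with a mean of 11 to 12, where the median of the list lay (11.86). Of 23 respiratory chain genes, with a median of 10.41, 8 were below 0.1, against 18% of clusters with a mean of 10 to 11, and Cox5b was the widest at 0.30. Of the 10 hepatocyte markers 6 were below 0.1, against 80% of clusters with a mean above 13. The level of a list's median is a rough background, since a list also holds genes above and below it. The share below 0.1 rose from 6.15% at a mean of 7 to 8 to 35.2% at 12 to 13 and 80% above 13. None of the genes in these lists was above 0.5, a count near the background of 2.30%. Of 33 genes of xenobiotic metabolism with a mean above 7, 9 were above 0.5 (8 without replicate 1), against 2.30% of all clusters. Another 4 were below 0.1, a count near the 12.2% of all clusters. Gsta2, a glutathione transferase, ran from 7.20 to 9.89 and the receptor Nr1i3 (CAR) from 5.93 to 8.08, whereas Cyp2d2 had an SD of 0.05. The female-specific Cyp2c12 had 12.97 ± 0.08 (SD, n = 10) and the male-specific Cyp2c11 4.80 ± 0.16. Of 18 cholesterol synthesis genes 13 were highest in control replicate 8, against 9.28% of all clusters, and the widest was Lss, with an SD of 0.42.

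Finally, the 2 control rats killed before 700 days were set against the 8 killed later with limma, fitted over all 36685 clusters. Age at death and illness cannot be told apart in this contrast, since the study killed rats early on welfare grounds. No cluster passed an adjusted p of 0.05 (0%), the smallest adjusted p was 0.452, and 2036 clusters had an unadjusted p under 0.05. The same fit on simulated arrays found 55% of clusters changed by 1 and 94% of those changed by 2. There the changes were planted in random clusters, with independent normal noise of each cluster's own SD. These shares therefore do not give the power for genes of large SD that vary together, such as Nr4a1 (SD 1.05). Nr4a1 had 9.28 and 9.81 in the rats killed early, against 6.47 to 8.70 in those killed later, with group means of 9.55 and 7.55 (SE of the difference 0.43, limma adjusted p = 0.607), and Nr4a2 had 9.38 and 10.29, against 7.63 to 8.97, a difference of 1.56 (SE 0.29, limma adjusted p = 0.513). In 446 of the 7964 clusters (5.60%) both early rats lay on 1 side of all 8 others, above them in 359 (4.51%). The 2 rats differed between themselves in the interferon and class II genes above. With the arrays of all diets and diet as a covariate no cluster passed either, with 2890 under an unadjusted 0.05. Without control replicate 3, 7 clusters passed, 6 of them higher in the single early rat left, which is then assumed to vary like the others.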

How the data were processed

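Liver RNA, from slices of frozen tissue, was hybridised to 1 array per rat. The authors deposited log2 values normalised together over all 28 arrays by the Robust Multi-array Average (Affymetrix Expression Console), which gives no separate read of background or RNA quality. Groups and ages were taken from the sample labels. Of the single-symbol clusters 18394 of 18511 matched RefSeq (GRCr8) by gene identifier. Means, SDs and correlations were computed with Python 3.11.15 (pandas 2.3.3, scipy 1.17.1) and the age fit with limma 3.58.1 in R 4.3.3, without a filter and with Benjamini-Hochberg adjustment. The limma fit and the permutation test were tested on simulated data. The genes named were the 30 of highest mean, largest SD and smallest SD among clusters with a mean above 7, the members of sets found among the 100 of largest SD, and, in each of 32 lists (588 genes), those of largest and smallest SD, beside further list members named to show a set or a rat, chosen after their values were seen. The members and lists were chosen with earlier results of these data known. Nothing in the labels gave a batch or the hour of death. Precision is limited by the number of arrays. The p-values belong to the permutation tests of gene pairs and the limma fits, with single rats of 1 array each as units. The SDs carry none.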

Additional observations from a re-analysis of the deposited data

Results flagged for a closer look

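Among 155 named genes, the highest or lowest of the 10 control rats lay far from its nearest neighbour, by Dixon's limit at the 95% level, in 31. Chance gives such a gap in about 1 gene in 20, but many of these genes were picked for a large SD, which 1 distant rat can itself make, and genes that vary together are not separate cases, so the count is a description and is not set against that share. The value beside each gene is that gap as a share of the range of the 10 rats. Control replicate 1 was the lowest rat for Bmal1 (0.898), Npas2 (0.849), Dusp6 (0.788), Tubb2a (0.726), Gldc (0.716), Chka (0.716), Acp3 (0.644), Osgin1 (0.575), Popdc2 (0.574), Slc6a6 (0.565), Jcad (0.546) and Rora (0.506). It was the highest rat for Dbp (0.825), Hsd17b2 (0.761), Por (0.723), Usp2 (0.669), Fabp12 (0.545), Mfsd2a (0.543), Ces1dl1 (0.495), Cidec (0.492) and Coq10b (0.468). Control replicate 3 was the highest for Irf7 (0.675), C1qc (0.551), Oasl2 (0.539) and Oasl (0.529), and control replicate 5 for RT1-Da (0.733) and Cd74 (0.692). The 4 other gaps were in steady genes, where they are small in signal. Cyp2d2 (0.467) was highest in replicate 4, Slc38a3 (0.518) was highest in replicate 10, Fth1 (0.562) lowest in replicate 7 and Ttr (0.636) lowest in replicate 6. The causes were not tested.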

How the results depend on the processing

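The 30 genes of highest mean were the same 30 by the median and with each array centred on its median. Of the 30 of largest SD, 28 were kept after centring, 24 without the 2 rats killed before 700 days and 17 by the scaled median absolute deviation, a measure that a single rat hardly moves. By that measure 111 clusters were above 0.5 (183 by the SD), 2250 below 0.1 (974 by the SD) and 7 of the 30 steadiest were kept. Of the 30 steadiest, 11 were kept after centring and 18 without the 2 rats killed early. With no limit on the mean 378 clusters were above 0.5, and 412 with clusters that carry no symbol, more clusters being ranked in both. Without each control rat in turn, 122 to 203 clusters were above 0.5, 936 to 1663 below 0.1, and 20 to 28 of the 30 of largest and 16 to 26 of the 30 of smallest SD were kept. The lowest count above 0.5 and the highest below 0.1 came without control replicate 1. Of the SDs of single genes among the 30 of largest and the 30 of smallest SD under the other settings, 737 were within 1.5 times the main value and 43 were not, 9 of these without control replicate 1. The counts of genes in a list without 1 rat were also chosen after seeing the data.

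The sets depended on the settings. Spearman's correlation gave 2 sets with 10 clusters, 50 clusters in place of 100 gave 3 sets with 17, and 200 gave 94 clusters in sets. The 9 sets held 104 pairs of genes, of which 9 were kept with Spearman's correlation, 104 at a limit of 0.7, 100 after centring and 12 without control replicate 1, a setting chosen after seeing the data.

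Of the pairs tested in the other rats, those of Cox8b and Oasl2 passed under each alternative, and that of Dbp is given only within 14 rats. Nr4a1 and Chac1 had 0.657 (adjusted permutation p = 0.104) in NK603 rats alone. Slc34a2 and Gdf15 had 0.176 (adjusted permutation p = 0.647) in NK603+R rats alone and 0.563 without the 2 farthest rats. Slc6a6 and Acp3 had 0.547 in NK603 and 0.644 in NK603+R rats alone and passed in neither, with 9 rats each. Npas2 and Mir122 had 0.399 in NK603 rats alone and 0.000195 after centring, and Coq10b and Cyp7a1 had -0.0060 in NK603 rats alone, all of them pairs that did not pass. For age at death, 7 clusters passed without control replicate 3 and 0 under the other alternatives, by limma, with 1333 to 2890 at an unadjusted p under 0.05 in the fits over all clusters. No paired analysis was possible because no result compares diets and replicate numbers name single rats. The causes were not tested.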
